A study of Mus musculus with 4 samples.

Results

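The glycolysis and lactate handling genes are 31 mouse genes for the enzymes that carry glucose to pyruvate and lactate, the proteins that set the flux through the pathway, and the carriers of lactate and their partner protein. They were chosen by symbol from a fixed list, with no measured value in the rule. All 31 were found among the 55573 gene IDs of the count files, and all 31 were among the 13076 genes with enough reads to be tested. One of the symbols, Aldoa, stands for a pair of IDs. The one with nearly all of the reads was used, and the other, with 6 and 3 counts in vdr-/- muscle against 2 and 2 counts in WT muscle, was left out.

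The counts come from RNA sequencing of the quadriceps, the thigh muscle that extends the knee, of mice aged 7 weeks. There were 2 libraries of vdr-/- mice of the strain B6.129S4-Vdrtm1Mbd/J and 2 libraries of wild-type (WT) C57BL/6J mice. The vdr-/- mice carry a targeted Vdr allele in every cell and lack functional vitamin D receptor, the transcription factor through which the active hormone form of vitamin D acts. Both groups were weaned at 21 days and fed regular chow with free access to water. The labels give neither the sex of the mice nor whether replicates 1 and 2 of a group came from separate animals, so a p-value measures a spread between libraries that could be technical. The series asks, by its title, how the receptor bears on fuel use in muscle, and glycolysis is the route by which muscle uses glucose and glycogen.

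Glycolysis splits glucose into pyruvate and yields ATP without oxygen. Hexokinase, phosphofructokinase and pyruvate kinase catalyse the steps that are irreversible in the cell. Fast muscle fibres, the main fibres of the quadriceps in mice, hold these enzymes in very large amounts and reduce much of their pyruvate to lactate, which leaves the fibre together with a proton. Most steps have several genes. Skeletal muscle is known for its own versions of phosphofructokinase (Pfkm), phosphoglycerate mutase (Pgam2) and enolase (Eno3), beside versions found in most cell types (Pfkl, Pfkp, Pgam1, Eno1) or in neurons (Eno2).

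Levels are given in 2 units. Normalised read counts, scaled to a common library size with TMM factors (CPM), compare a gene between libraries. CPM per kb, which is CPM divided by the summed length of the exons of a gene in kilobases, compares genes with each other. Values of a group are given for replicate 1 and then replicate 2. Log2 fold changes are vdr-/- over WT with their standard error (SE) from edgeR's quasi-likelihood test, and a gene is called where the p adjusted over all 13076 genes by the Benjamini-Hochberg method is below 0.05. Where a library was left out, its group had 1 library, which was taken to vary like the 2 of the other group. The spread of a gene then came from that other group and from sharing across genes, so a call made that way is no replicate check of the group of 1.

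The vdr-/- libraries held 21.34 M and 11.21 M counts and the WT libraries 10.79 M and 13.03 M, of which 43.3% to 47.8% came from the mitochondrial genome. Vdr itself had 5 and 1 counts in vdr-/- muscle against 5 and 0 counts in WT muscle, too few to check the labels. Xist, the RNA that silences an X chromosome in female cells, stood at 0 and 0.256 CPM in vdr-/- muscle, against 183 and 217 CPM in WT muscle, so the groups were of opposite sex and every difference below is also one between libraries of opposite sex. The Y-linked gene Ddx3y stood at 75.8 and 63.0 CPM in vdr-/- muscle, against 4.74 and 0 CPM in WT muscle, so WT replicate 1 also held a low level of Y-linked RNA. Muscle fibre markers, a list of 8 genes such as the actin Acta1 and the creatine kinase Ckm, summed to 85179.6 and 86017 CPM in vdr-/- muscle, against 97742 and 91407 CPM in WT muscle, so the defining genes of the labelled tissue were abundant. This sum was lower in both vdr-/- libraries, and 7 of the 8 log2 fold changes were negative, beside 50.1% of all tested genes. Of the 8, edgeR called 0 and DESeq2 called 1. A list of 10 fast-fibre markers overlapped between the groups, with sums of 69109 and 70519 CPM in vdr-/- muscle, against 76911 and 68327 CPM in WT muscle. Fat-cell markers differed: 9 of 12 were called higher in vdr-/- muscle (beside 1.61% of all tested genes), where their summed level was 4587 and 4177 CPM, against 1098 and 1353 CPM in WT muscle, and none was at 0. In bulk tissue a change in the number of cells of a type and a change in their RNA per cell cannot be told apart.

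Together the 31 genes took 3.84% and 3.74% of the counts of nuclear genes in vdr-/- muscle, against 4.06% and 3.56% in WT muscle. The 95% Wilson intervals of the 4 shares, which cover counting error only, did not overlap one another. The vdr-/- libraries lay between the WT libraries, so no difference in this share exceeded the spread between replicates. Aldoa alone, the muscle form of aldolase, made up 35.8% to 38.5% of the counts of the 31 genes.

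The steps of the pathway differed in level by far more than the libraries did. At the entry, Hk2, the insulin-regulated hexokinase that phosphorylates glucose, stood at 28.4 and 24.5 CPM per kb in vdr-/- muscle, against 31.8 and 22.1 CPM per kb in WT muscle. Gpi1, which turns glucose 6-phosphate into fructose 6-phosphate, stood at 55.4 and 54.7 CPM per kb in vdr-/- muscle, against 57.4 and 52.0 CPM per kb in WT muscle. Pfkm, which adds the second phosphate, stood at 315 and 285 CPM per kb in vdr-/- muscle, against 389 and 268 CPM per kb in WT muscle. The level was thus higher at each of these steps than at the one before it in all 4 libraries, and at each step the groups overlapped.

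The highest levels of the pathway lay between aldolase and enolase. Aldoa, which splits fructose 1,6-bisphosphate into the triose phosphates, stood at 2648 and 2493 CPM per kb in vdr-/- muscle, against 3015 and 2526 CPM per kb in WT muscle. Tpi1, which interconverts the triose phosphates, stood at 287 and 329 CPM per kb in vdr-/- muscle, against 325 and 257 CPM per kb in WT muscle. Gapdh, which opens the energy-yielding phase of the pathway, stood at 644 and 685 CPM per kb in vdr-/- muscle, against 814 and 715 CPM per kb in WT muscle. The level of Gapdh was lower in both vdr-/- libraries than in both WT libraries, and those of Aldoa and Tpi1 overlapped between the groups.

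Pgk1, which makes the first ATP, stood at 172 and 177 CPM per kb in vdr-/- muscle, against 176 and 155 CPM per kb in WT muscle. Pgam2, which moves the phosphate group within phosphoglycerate, stood at 1268 and 1341 CPM per kb in vdr-/- muscle, against 1194 and 1119 CPM per kb in WT muscle. Eno3, which removes water to make phosphoenolpyruvate, stood at 1615 and 1607 CPM per kb in vdr-/- muscle, against 1689 and 1434 CPM per kb in WT muscle. Of these 3 genes Pgam2 was higher in both vdr-/- libraries, and Pgk1 and Eno3 overlapped between the groups.

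Pkm, the pyruvate kinase of muscle, which makes the second ATP, stood at 235 and 249 CPM per kb in vdr-/- muscle, against 262 and 232 CPM per kb in WT muscle. Its M1 and M2 forms come from the same gene by alternative splicing and cannot be told apart in counts per gene. Ldha, which reduces pyruvate to lactate and returns NAD+ to the pathway, stood at 325 and 326 CPM per kb in vdr-/- muscle, against 363 and 307 CPM per kb in WT muscle. Slc16a3 (MCT4), the lactate exporter of fast fibres, stood at 25.5 and 26.2 CPM per kb in vdr-/- muscle, against 21.7 and 19.3 CPM per kb in WT muscle. The last step thus had a level per kb like that of hexokinase at the first, and Bsg (basigin), the protein that brings such carriers to the cell surface, was far above it at 197 and 173 CPM per kb in vdr-/- muscle, against 188 and 156 CPM per kb in WT muscle.

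**Figure D1:**
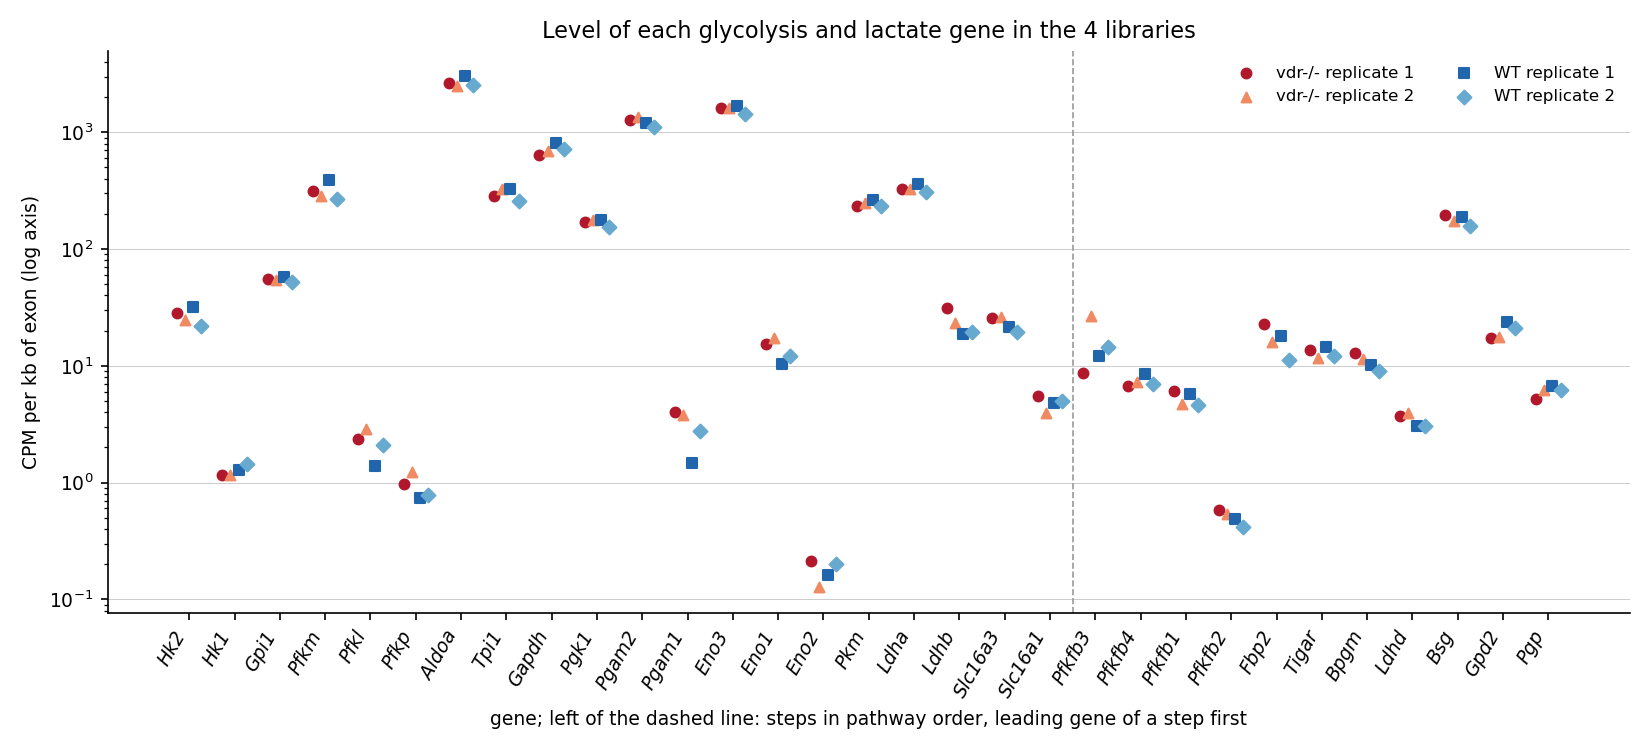
Level of the 31 genes in CPM per kb of exon (log axis) in the 4 libraries; genes left of the dashed line follow the steps of the pathway with the gene of highest level first, and regulators and side branches stand right of it. Aldoa, Eno3 and Pgam2 lie above 1000 CPM per kb in all 4 libraries, and Eno2 lies lowest.

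In the order of mean levels per kb, Aldoa ranked 1, Eno3 ranked 2, Pgam2 ranked 3 and Gapdh ranked 4 in both groups. Ldha, Pfkm and Tpi1 followed with ranges over the 4 libraries that overlapped one another, so their order was not settled. This order depends on the length used. Divided by the length of the principal transcript in place of all exons, Gapdh ranked 2 in both groups, and it ranked 1 with the stretches of that transcript that occur in no gene elsewhere.

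Several of these genes have near-identical copies elsewhere in the genome, many of them pseudogenes, and the authors' handling of reads with several matches was not given in the sources used here. Of the 50-base windows of the principal transcript, 82.5% were also found in transcripts of genes elsewhere for Gapdh, 72.2% for Eno1 and 68.0% for Pgk1. The share was 41.5% for Pgam1, 30.5% for Pkm, 27.0% for Ldhb, 19.6% for Gpi1, 17.1% for Ldha, 13.9% for Aldoa and 7.51% for Tpi1. It was below 1% for each of the other 21 genes. The levels of the first 3 genes are therefore the least certain, while a comparison of a gene between libraries is affected only as far as its copies differ between them.

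At 6 steps, beside the kinase that makes fructose 2,6-bisphosphate, more than 1 of the genes competes for the same reaction, and in all 4 libraries the same gene held the largest share of each step. The isoform share is the percentage that a gene takes of the summed CPM per kb of its step. With 2 libraries against 2, the smallest 2-sided p of an exact permutation test is 0.333, so no share can pass 0.05 and differences in shares are given without a test.

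Pgam2 held 99.68% and 99.72% in vdr-/- muscle, against 99.88% and 99.75% in WT muscle, and Pgam1, the form of most other tissues, held 0.319% and 0.282% in vdr-/- muscle, against 0.124% and 0.246% in WT muscle. Eno3 held 99.04% and 98.92% in vdr-/- muscle, against 99.39% and 99.15% in WT muscle, and Eno1, the widespread alpha enolase, held 0.9497% and 1.07% in vdr-/- muscle, against 0.604% and 0.837% in WT muscle. For both steps the share of the muscle form was lower, and that of the widespread form higher, in both vdr-/- libraries than in both WT libraries. At each of these steps the gap between the nearest libraries of different groups was smaller than the gap between the libraries of either group. The difference between group means was -0.12 percentage points for Pgam2 and -0.29 for Eno3. It was -2.18 percentage points for Eno3 when only windows of the principal transcript found in no other gene were counted as length, with means of 92.0% in vdr-/- muscle and 94.2% in WT muscle. Eno2, the neuronal enolase, had 0.00781% to 0.0138% of the step over the 4 libraries.

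Pfkm held 98.95% and 98.57% in vdr-/- muscle, against 99.45% and 98.93% in WT muscle, with overlapping groups. Pfkl, named for liver, held 0.740% and 1.00% in vdr-/- muscle, against 0.356% and 0.777% in WT muscle, and Pfkp, named for platelets, held 0.305% and 0.429% in vdr-/- muscle, against 0.190% and 0.288% in WT muscle. The share of Pfkp was higher in both vdr-/- libraries, and that of Pfkl overlapped between the groups. For Pfkp the nearest libraries of different groups lay closer together than the libraries of either group.

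Hk2 held 96.1% and 95.5% in vdr-/- muscle, against 96.1% and 93.9% in WT muscle, the remainder being Hk1, the hexokinase of most tissues and of red blood cells. Here the groups overlapped, and Hk1 took its largest share in WT replicate 2.

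With lengths of all exons the lactate carriers were less one-sided than each of the steps above. Ldha held a smaller share than Hk2 in both vdr-/- libraries and in WT replicate 1, but not in WT replicate 2 (94.0% against 93.9%). Ldha held 91.2% and 93.3% in vdr-/- muscle, against 95.1% and 94.0% in WT muscle, and Ldhb, the heart form that is known to favour lactate as substrate, held 8.80% and 6.65% in vdr-/- muscle, against 4.89% and 6.01% in WT muscle. The difference in the share of Ldhb was 2.28 percentage points between group means, or 1.16 without division by length, and the groups did not overlap, although the gap between the nearest libraries, at 6.65% in vdr-/- and 6.01% in WT muscle, was smaller than the gap between the libraries of either group. Of the pair of lactate carriers among the 31, Slc16a3 held 82.1% and 86.9% in vdr-/- muscle, against 81.7% and 79.3% in WT muscle, and Slc16a1 (MCT1), the carrier of higher affinity found in oxidative fibres and many other cells, held the rest. The share of Slc16a3 was thus higher in both vdr-/- libraries, by 3.97 percentage points between group means. Here too the nearest libraries of different groups lay closer together than the libraries of either group. With Slc16a7, a carrier outside the 31, counted as well, Slc16a3 held 80.2% and 84.7% in vdr-/- muscle, against 80.3% and 78.2% in WT muscle, and the groups overlapped. This last count was added after seeing the data.

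**Figure D2:**
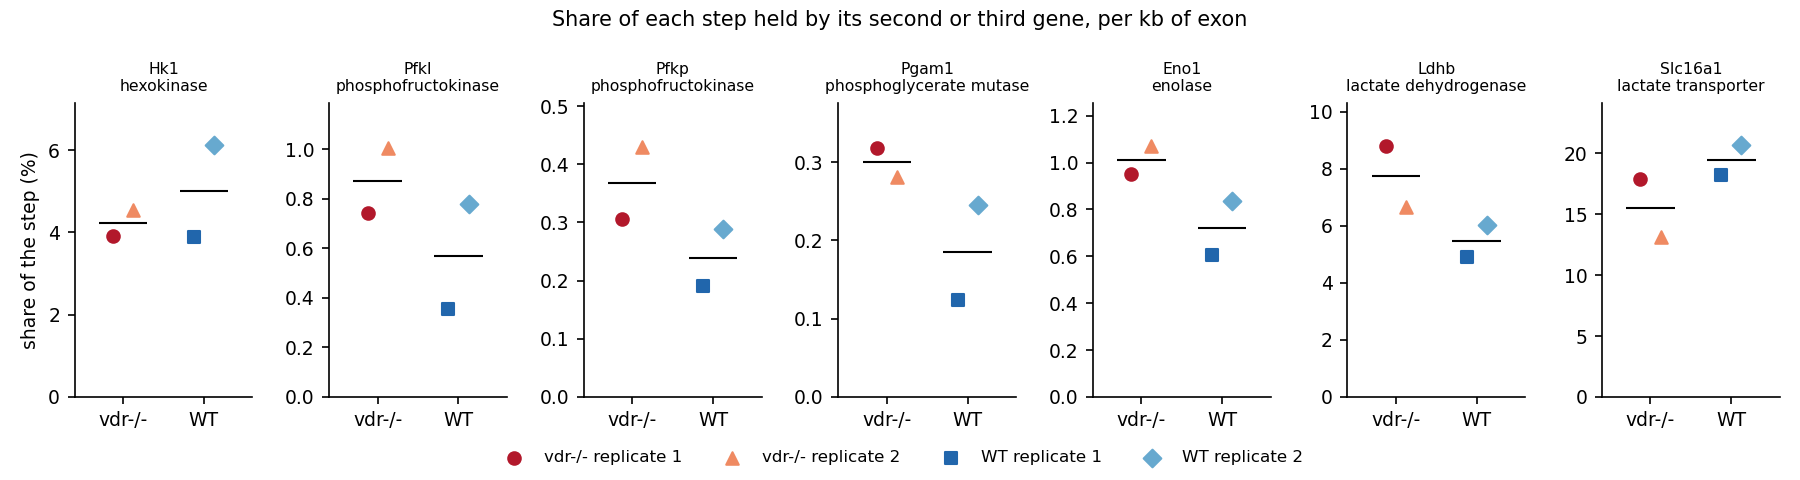
Share (%) of the summed CPM per kb of a step held by 7 genes other than its leading gene, for vdr-/- and WT libraries; points are libraries, lines are group means and every axis starts at 0. Pfkp, Pgam1, Eno1 and Ldhb lie higher in both vdr-/- libraries, Slc16a1 lies lower in both, and Hk1 and Pfkl overlap. For each gene without overlap, the nearest libraries of different groups lie closer together than the libraries of either group.

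A pair of paralogues of very unequal level, Pgam2 and Pgam1, and the more mixed pair of Ldha and Ldhb are shown with the 250 bases before the RefSeq start of each gene on GRCm38.p6, to show how far the letters before their starts differ. Per kb, Pgam2 exceeded Pgam1 by ratios of 313 and 354 in vdr-/- muscle, against 805 and 406 in WT muscle, and Ldha exceeded Ldhb by ratios of 10.4 and 14.0 in vdr-/- muscle, against 19.4 and 15.6 in WT muscle. Capitals mark the E-box letters CANNTG, the core motif of myogenic and other helix-loop-helix factors. The motif reads the same on both strands. The windows are chr11:5803797-5804046 on the minus strand for Pgam2, chr19:41911621-41911870 on the plus strand for Pgam1, chr7:46846832-46847081 on the plus strand for Ldha, and chr6:142507958-142508207 on the minus strand for Ldhb. 
Pgam2: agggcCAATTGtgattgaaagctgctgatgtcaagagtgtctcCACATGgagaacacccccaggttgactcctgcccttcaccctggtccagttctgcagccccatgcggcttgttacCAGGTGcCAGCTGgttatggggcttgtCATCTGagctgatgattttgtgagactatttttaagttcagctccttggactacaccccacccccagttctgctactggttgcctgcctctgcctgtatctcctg
Pgam1: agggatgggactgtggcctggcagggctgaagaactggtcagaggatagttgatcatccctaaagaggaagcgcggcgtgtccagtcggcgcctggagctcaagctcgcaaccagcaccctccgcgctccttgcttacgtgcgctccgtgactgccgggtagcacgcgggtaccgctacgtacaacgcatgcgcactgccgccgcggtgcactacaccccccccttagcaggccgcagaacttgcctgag
Ldha: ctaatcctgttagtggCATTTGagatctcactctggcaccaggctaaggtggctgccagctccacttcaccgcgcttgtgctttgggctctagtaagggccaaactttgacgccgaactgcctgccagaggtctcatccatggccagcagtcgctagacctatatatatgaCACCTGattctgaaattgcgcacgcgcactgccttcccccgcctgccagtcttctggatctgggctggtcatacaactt
Ldhb: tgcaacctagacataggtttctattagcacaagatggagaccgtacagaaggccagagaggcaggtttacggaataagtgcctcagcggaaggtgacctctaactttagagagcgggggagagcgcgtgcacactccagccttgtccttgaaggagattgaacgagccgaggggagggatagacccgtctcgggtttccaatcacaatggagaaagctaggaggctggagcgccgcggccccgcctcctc
The Pgam2 window held 5 matches and the Pgam1 window 0, and the Ldha window held 2 and the Ldhb window 0. Of 32841 mouse promoter windows of the same length, 66.2% held at least 1 match, 31.8% at least 2 and 1.15% at least 5, with a median of 1. A match is a description of the letters and not evidence that a factor binds there. Ldha has 2 promoter windows in RefSeq, of which the one nearest the principal transcript is shown.

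Between the genotypes, none of the 31 genes passed the test. By edgeR's quasi-likelihood test 0 of 31 were called, where 2.03% of all tested genes were called (265 of 13076), 211 of these (1.61%) higher and 54 (0.413%) lower. DESeq2 called 1 of the 31, Eno1, where it called 300 of the 26657 genes it fitted (1.13%). At an unadjusted p below 0.05, 9 of the 31 genes (29.0%) differed, 8 higher and 1 lower in vdr-/- muscle, where the share over all tested genes was 14.0%, with 8.08% higher and 5.90% lower. The median log2 fold change of the 31 was 0.06, with 18 positive and 13 negative, beside -0.0007 over all tested genes, of which 49.9% were positive and 50.1% negative. The libraries of the groups did not overlap for 10 genes that were higher and 3 that were lower in vdr-/- muscle, 13 of 31, where 44.7% of all tested genes did not overlap, 23.0% higher and 21.7% lower. The 31 genes were chosen with earlier results of these data known, so these counts are a description.

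The 12 leading genes, 1 for each step from hexokinase to lactate export, which carry the bulk of the message for the pathway, stood at similar levels in both groups. By edgeR 0 of 12 were called, and DESeq2 called 0 as well. At an unadjusted p below 0.05, 1 was higher, beside 8.08% of all tested genes. Their median log2 fold change was -0.01, with 6 positive and 6 negative. In CPM, Aldoa had 7483 ± 320.0 CPM in vdr-/- muscle and 8064 ± 1007 CPM in WT muscle (SD, n = 2 each), and its log2 fold change of -0.11 ± 0.15 had a 95% interval of -0.44 to 0.23. For Pfkm the log2 fold change was -0.13 ± 0.18 with an interval of -0.52 to 0.26. Such intervals give the range of differences that these libraries leave possible, and small differences were not detectable with 2 libraries a group.

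Gapdh had 2661 and 2830.0 CPM in vdr-/- muscle, against 3365 and 2954 CPM in WT muscle. Its log2 fold change was -0.20 ± 0.14 (edgeR adjusted p = 0.583), the most negative of the 12. Slc16a3 had 135 and 139 CPM in vdr-/- muscle, against 115 and 103 CPM in WT muscle, with the most positive log2 fold change of the 12 at 0.34 ± 0.12, the only unadjusted p below 0.05 among them (0.0209) and an adjusted p of 0.241. The groups did not overlap for Gapdh, Slc16a3 or Pgam2, and overlapped for the other 9 leading genes. Of all tested genes 44.7% did not overlap.

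**Figure D3:**
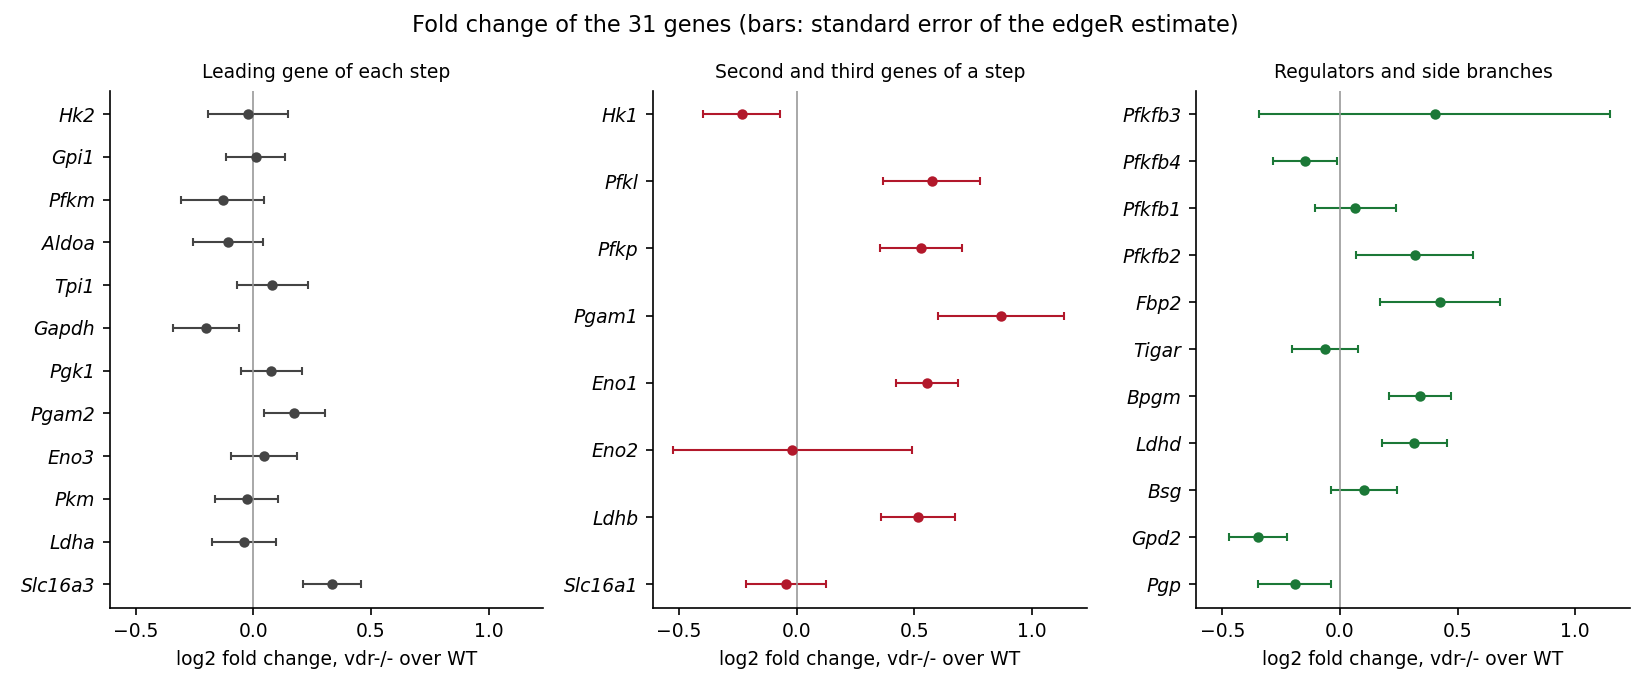
Log2 fold change, vdr-/- over WT, of the 31 genes with the SE of the edgeR estimate as bars, for the leading gene of each step, the second and the third genes of a step, and the regulators and side branches. The leading genes lie from -0.20 (Gapdh) to 0.34 (Slc16a3), and Pgam1 lies highest of all at 0.87.

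The second and the third genes of a step number 8. Of these 0 were called by edgeR, DESeq2 called 1 (Eno1), and 5 had an unadjusted p below 0.05, all of them higher in vdr-/- muscle, where 8.08% of all tested genes were higher at that threshold. Their median log2 fold change was 0.52, beside -0.0007 over all tested genes and a difference from the leading genes that was not tested, and their summed level was 204.8 and 201.8 CPM in vdr-/- muscle against 139.9 and 161.5 CPM in WT muscle. This sum was 1.06% and 1.05% in vdr-/- muscle, against 0.640% and 0.876% in WT muscle, of that of the leading genes.

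Eno1 (ENSMUSG00000063524, chromosome 4, 150236721 to 150248879 on GRCm38) had 83.3 and 93.7 CPM in vdr-/- muscle, against 55.2 and 65.2 CPM in WT muscle. Both vdr-/- libraries exceeded both WT libraries, with a log2 fold change of 0.55 ± 0.13. Eno1 came nearest to a call of the 31 (edgeR adjusted p = 0.0715). DESeq2 called it with the same fold change (0.55, adjusted p = 0.0272), as did edgeR without a filter on low counts (adjusted p = 0.0195). With 1 library left out it was called only without WT replicate 2 (log2 fold change 0.68, adjusted p = 0.044), a fit with 1 WT library, and its adjusted p was 0.335 without WT replicate 1. Most windows of its transcript occur in other genes too, so its counts are uncertain.

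Pgam1 (ENSMUSG00000011752, chromosome 19, 41911923 to 41918660) had 8.03 and 7.503 CPM in vdr-/- muscle, against 2.94 and 5.46 CPM in WT muscle. Its log2 fold change of 0.87 ± 0.27 was the largest of the 31 and its adjusted p was 0.157 by edgeR. WT replicate 1 was lowest, and against that library alone the value was 1.40 (called, adjusted p = 0.0146), while against WT replicate 2 alone it was 0.51 (adjusted p = 0.603). At these levels Pgam1 contributed under 1% of the mutase message in any library.

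Pfkl had 15.7 and 19.4 CPM in vdr-/- muscle, against 9.29 and 14.0 CPM in WT muscle, with a log2 fold change of 0.57 ± 0.20 (edgeR adjusted p = 0.231). Against WT replicate 1 alone, the lowest library, it was 0.91 (called, adjusted p = 0.0433), and against WT replicate 2 alone 0.32 (adjusted p = 0.753). Pfkp had 13.0 and 16.6 CPM in vdr-/- muscle, against 9.95 and 10.5 CPM in WT muscle, with a log2 fold change of 0.53 ± 0.17 (adjusted p = 0.189). For both of these phosphofructokinase genes the groups did not overlap.

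Ldhb (ENSMUSG00000030246, chromosome 6, 142490249 to 142507957) had 49.2 and 36.5 CPM in vdr-/- muscle, against 29.3 and 30.8 CPM in WT muscle. The WT libraries lay close together and vdr-/- replicate 1 was highest. The log2 fold change was 0.52 ± 0.16 (edgeR adjusted p = 0.148), and 1 vdr-/- library decided its size. With vdr-/- replicate 1 alone it was 0.71 (called, adjusted p = 0.0445), and with vdr-/- replicate 2 alone 0.28 (adjusted p = 0.548).

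The 3 remaining genes of this kind went the other way or stayed level in these values. Hk1 had 9.89 and 9.98 CPM in vdr-/- muscle, against 10.99 and 12.3 CPM in WT muscle, lower in both vdr-/- libraries (log2 fold change -0.23 ± 0.16, edgeR adjusted p = 0.588). Slc16a1 had 24.6 and 17.6 CPM in vdr-/- muscle, against 21.4 and 22.3 CPM in WT muscle, with overlapping groups. Eno2 had 0.597 to 0.998 CPM over the 4 libraries, and its SE of 0.51 leaves a change of either sign possible.

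Without WT replicate 1, the library with a low level of Y-linked RNA, the log2 fold change was 0.44 for Eno1, 0.51 for Pgam1, 0.32 for Pfkl, 0.50 for Pfkp and 0.48 for Ldhb, and none of these was called by edgeR. Markers of other cell types are given beside these genes. The widespread forms Eno1, Pgam1, Pfkl and Pfkp are made by many cell types, fat cells included, and the summed fat-cell markers were higher in both vdr-/- libraries, at the levels given above. Not all widespread forms were higher: the log2 fold change was -0.23 for Hk1 and -0.04 for Slc16a1. Cfd, the fat-cell protease adipsin, had 2142 and 1607 CPM in vdr-/- muscle, against 379.9 and 420.3 CPM in WT muscle, and Adipoq, the fat-cell hormone adiponectin, had 301 and 299.6 CPM in vdr-/- muscle, against 70.2 and 88.4 CPM in WT muscle. Ldhb is a form of slow, oxidative fibres, and the slow-fibre markers, such as the slow myosin Myh7, summed to 206 and 111 CPM in vdr-/- muscle, against 123 and 156 CPM in WT muscle. Replicate 1 of the vdr-/- group was highest for both Ldhb and these markers, and vdr-/- replicate 2 was lowest for the markers but above both WT libraries for Ldhb. Of the 9 slow-fibre markers 0 were called by edgeR, 0 had an unadjusted p below 0.05 and DESeq2 called 0. Macrophage markers summed to 204 and 215 CPM in vdr-/- muscle, against 162 and 190.0 CPM in WT muscle, higher in both vdr-/- libraries. Of these 6 markers 0 were called by edgeR or DESeq2. At an unadjusted p below 0.05, 2 were higher, beside 8.08% of all tested genes. A positive log2 fold change was found for 6, beside 49.9% of all tested genes. Endothelial markers summed to 178 and 169 CPM in vdr-/- muscle, against 186 and 203 CPM in WT muscle. Tendon markers summed to 385 and 281 CPM in vdr-/- muscle, against 495 and 400 CPM in WT muscle. Both of these sums were lower in both vdr-/- libraries. Fibroblast markers overlapped, at 5482 and 5450 CPM in vdr-/- muscle, against 5203 and 5532 CPM in WT muscle. Nerve and Schwann cell markers summed to 88.5 and 88.6 CPM in vdr-/- muscle, against 85.7 and 72.5 CPM in WT muscle. The part of any of these cell types in the differences was not tested.

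**Figure D4:**
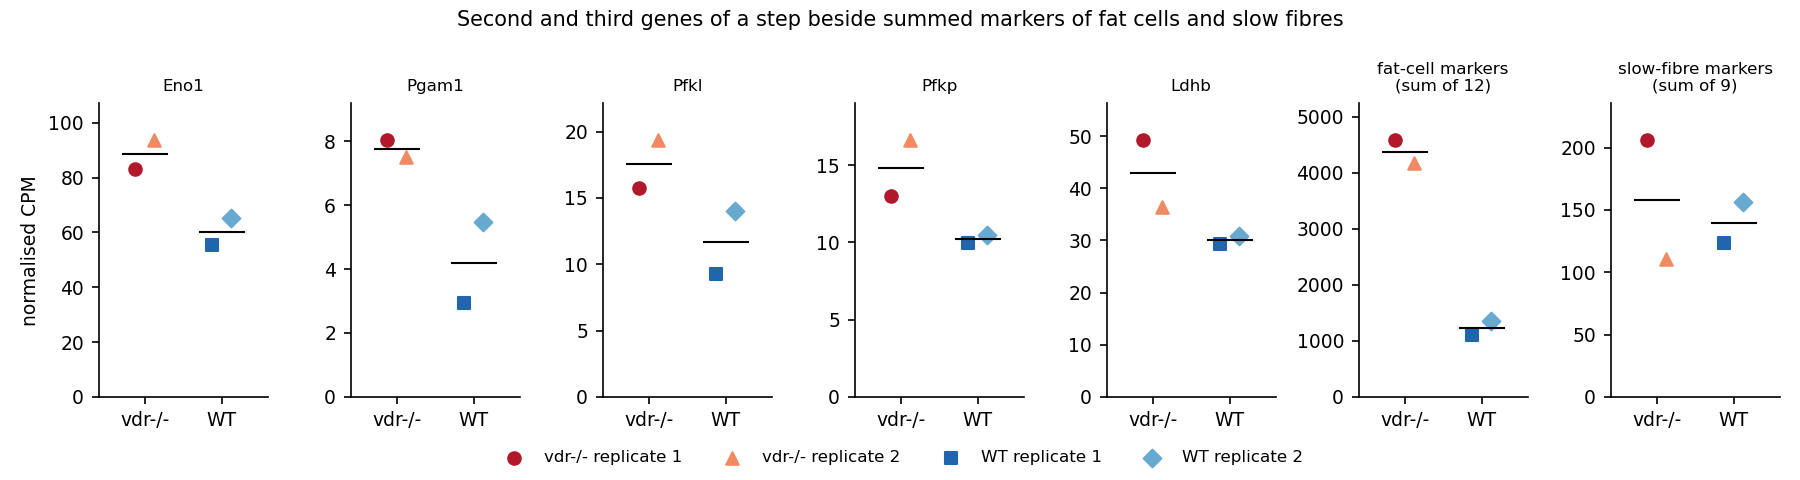
Level (TMM-normalised CPM) of Eno1, Pgam1, Pfkl, Pfkp and Ldhb beside the summed levels of 12 fat-cell markers and 9 slow-fibre markers in vdr-/- and WT libraries; points are libraries, lines are group means and every axis starts at 0. The 5 genes are those with an edgeR unadjusted p below 0.05 among the genes of a step other than its leading gene. A difference between the groups was thus part of their selection, and Hk1, Slc16a1 and Eno2 are not shown. All 5 genes and the fat-cell sum lie higher in both vdr-/- libraries, while the slow-fibre sum overlaps between the groups. Of all tested genes 23.0% were likewise higher in both vdr-/- libraries.

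The activity of phosphofructokinase is set in part by fructose 2,6-bisphosphate, which activates it and is made and removed by the PFKFB enzymes. Pfkfb3, the form with the strongest bias towards making it, was the PFKFB gene with the highest level per kb in every library. Of the summed level of the 4 PFKFB genes it held 39.2% and 68.1% in vdr-/- muscle, against 45.0% and 54.7% in WT muscle. No other step had a share that varied as much between libraries of one group.

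Pfkfb3 (ENSMUSG00000026773, chromosome 2, 11471433 to 11554077) had 65.6 and 202 CPM in vdr-/- muscle, against 91.4 and 109.9 CPM in WT muscle. The vdr-/- libraries were the lowest and the highest of the 4, with the WT libraries between them, and the log2 fold change was 0.40 ± 0.75 (edgeR adjusted p = 0.891). The 2 vdr-/- libraries decided its direction. With vdr-/- replicate 2 alone it was 1.00 (called, adjusted p = 0.0139), and with vdr-/- replicate 1 alone it was -0.61 (adjusted p = 0.133). These fits take the spread from the WT libraries, which lay far closer together than the vdr-/- libraries, so that call carries no weight.

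The other PFKFB genes varied less. Pfkfb4, the form named for testis, had 33.0 and 35.5 CPM in vdr-/- muscle, against 41.6 and 34.3 CPM in WT muscle. Pfkfb1, the X-linked form of liver and muscle, had 24.5 and 18.8 CPM in vdr-/- muscle, against 23.2 and 18.5 CPM in WT muscle. Pfkfb2, the heart form, had 4.18 and 3.92 CPM in vdr-/- muscle, against 3.51 and 3.04 CPM in WT muscle, higher in both vdr-/- libraries (log2 fold change 0.32 ± 0.25, edgeR adjusted p = 0.644). For Pfkfb4 and Pfkfb1 the groups overlapped.

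Enzymes that work against phosphofructokinase were also present. Tigar, a phosphatase that lowers fructose 2,6-bisphosphate, had 50.4 and 42.8 CPM in vdr-/- muscle, against 53.1 and 44.6 CPM in WT muscle. Fbp2, the muscle fructose bisphosphatase that reverses the phosphofructokinase step, had 33.5 and 23.6 CPM in vdr-/- muscle, against 26.3 and 16.5 CPM in WT muscle. Its log2 fold change was 0.43 ± 0.26 (edgeR adjusted p = 0.533), the groups overlapped, and the value ran from 0.12 to 0.80 with each library left out in turn. Replicate 1 was the higher library in either group for both genes.

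**Figure D5:**
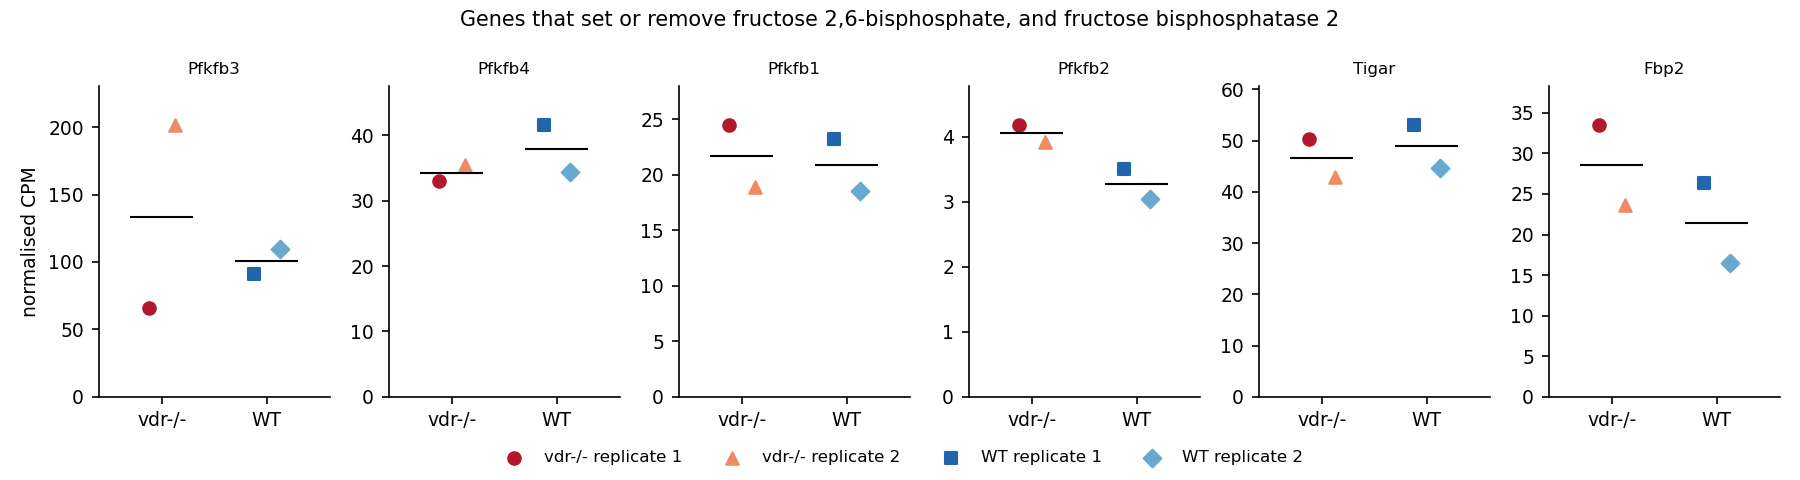
Level (TMM-normalised CPM) of the 4 PFKFB genes, Tigar and Fbp2 in vdr-/- and WT libraries; points are libraries, lines are group means and every axis starts at 0. Pfkfb3 ranges from 65.6 to 202 CPM within the vdr-/- group, and of the 6 genes only Pfkfb2 does not overlap between the groups.

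Lactate handling combined an estimate near 0 for the main enzyme with higher values for some of the genes of lower level. Ldha had 1075 and 1079.8 CPM in vdr-/- muscle, against 1200.5 and 1016 CPM in WT muscle, with a log2 fold change of -0.04 ± 0.14 and a 95% interval of -0.35 to 0.26. Bsg had 357 and 313 CPM in vdr-/- muscle, against 341 and 283 CPM in WT muscle, also with overlapping groups. Ldhd, the mitochondrial dehydrogenase of D-lactate, had 19.7 and 20.9 CPM in vdr-/- muscle, against 16.4 and 16.2 CPM in WT muscle. The groups did not overlap for Ldhd (log2 fold change 0.32 ± 0.14, unadjusted p = 0.0456, edgeR adjusted p = 0.342). Exons of Znrf1, a gene on the opposite strand, cover 42.2% of the exon bases of Ldhd, and the counts were strand-specific. Of 461 genes wholly covered by opposite-strand exons 120 had a count, against 1 of 736 covered by exons of their own strand.

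Side branches of the pathway gave the only gene of the 31 that was lower at an unadjusted p below 0.05. Gpd2, the mitochondrial enzyme of the glycerol phosphate shuttle, which carries electrons from cytosolic NADH to the respiratory chain (ENSMUSG00000026827, chromosome 2, 57237635 to 57370719), had 113 and 116 CPM in vdr-/- muscle, against 154 and 137 CPM in WT muscle. Both vdr-/- libraries lay below both WT libraries, with a log2 fold change of -0.35 ± 0.12 (unadjusted p = 0.0173, edgeR adjusted p = 0.224). Its partner in the cytosol, Gpd1, which is not among the 31, had 486 and 575 CPM in vdr-/- muscle, against 374 and 414 CPM in WT muscle. The log2 fold change of Gpd1 was 0.43 ± 0.14 (adjusted p = 0.178), so the estimates for the pair had opposite signs and neither gene was called. The ratio of their levels per kb, Gpd1 over Gpd2, was 9.54 and 10.97 in vdr-/- muscle, against 5.38 and 6.66 in WT muscle. Gpd1 also makes the glycerol phosphate of stored fat and is abundant in fat cells, whose markers were higher in vdr-/- muscle. The part of fat cells in this ratio was not tested.

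Bpgm, which makes the 2,3-bisphosphoglycerate that lowers the oxygen affinity of haemoglobin, had 46.1 and 40.8 CPM in vdr-/- muscle, against 36.5 and 32.3 CPM in WT muscle. Its log2 fold change was 0.34 ± 0.13 (unadjusted p = 0.0282, edgeR adjusted p = 0.277). Bpgm is best known from red blood cells, and markers of these cells summed to 551 and 390.1 CPM in vdr-/- muscle, against 243 and 266 CPM in WT muscle, higher in both vdr-/- libraries. Of their 7 genes 5 were tested, 2 of these were called higher (beside 1.61% of all tested genes), and none was at 0. The part of red blood cells in the value of Bpgm was not tested. Pgp, a phosphatase that clears toxic by-products of the pathway, had 14.0 and 16.9 CPM in vdr-/- muscle, against 18.4 and 16.8 CPM in WT muscle, with a log2 fold change of -0.19 ± 0.16.

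Beyond the 31, a list of 31 other genes of the pathway and of its supply was read from the same fit. All matched an ID. Of these, 19 were tested and 12, among them the liver genes Pklr and Fbp1 and the testis genes Pgk2 and Ldhc, had too few counts. Of the 19, edgeR called 1 higher and 0 lower, beside 2.03% of all tested genes, and DESeq2 called 1. At an unadjusted p below 0.05, 4 were higher and 2 lower, beside 8.08% and 5.90% of all tested genes. The median log2 fold change of the 19 was 0.06.

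The called gene was Hcar1, the lactate receptor, best known from fat cells. It rose to 10.2 and 11.4 CPM in vdr-/- muscle, against 1.71 and 2.42 CPM in WT muscle, a log2 fold change of 2.36 ± 0.24 (edgeR adjusted p = 0.000978). With each library left out in turn the value was 2.15 to 2.65. The fat-cell markers had a median log2 fold change of 1.77, with Cfd highest at 2.23 and Ucp1 lowest at -0.45, and the part of fat cells in it was not tested. Slc16a7 (MCT2), a lactate and pyruvate carrier of high affinity, had 8.65 and 9.12 CPM in vdr-/- muscle, against 5.50 and 3.90 CPM in WT muscle. Its log2 fold change was 0.93 ± 0.22 (adjusted p = 0.063), and it was 1.19 against WT replicate 2 alone (called, adjusted p = 0.0312) and 0.69 against WT replicate 1 alone (adjusted p = 0.266).

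Among the lower genes, Pgm2l1, which makes glucose 1,6-bisphosphate, had 16.4 and 13.6 CPM in vdr-/- muscle, against 22.9 and 21.3 CPM in WT muscle (log2 fold change -0.56 ± 0.15, edgeR adjusted p = 0.108). Mpc2, a subunit of the carrier that takes pyruvate into mitochondria, had 80.4 and 82.7 CPM in vdr-/- muscle, against 100.1 and 102 CPM in WT muscle (log2 fold change -0.31 ± 0.12, adjusted p = 0.257), while its partner Mpc1 had a log2 fold change of 0.06 ± 0.13. The insulin-regulated glucose transporter Slc2a4 (GLUT4) had 241 and 225 CPM in vdr-/- muscle, against 269 and 192 CPM in WT muscle, with overlapping groups.

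The positions of some genes bear on the comparison. Pfkm (chromosome 15, 98092589 to 98132451 on GRCm38) lies 182 kb from Vdr (97854425 to 97910630), and Gpd1 lies 1.81 Mb from it. An allele made in stem cells of another strain is known to bring flanking sequence of that strain with it, so a strain difference at these genes and the lack of the receptor cannot be told apart. Pgk1 (chromosome X, 106187100 to 106203699) and Pfkfb1 (chromosome X, 150588229 to 150643878) are X-linked, in groups of opposite sex. Their log2 fold changes were 0.08 ± 0.13 and 0.06 ± 0.17, and the libraries of the groups overlapped for both.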

How the data were processed

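Per the files, 4 tables of raw counts per Ensembl gene were deposited, 1 per library, with 1 column of whole numbers. Per the submitters' processing notes, the authors used Trimmomatic, STAR and DESeq2 with the mouse build GRCm38 (mm10). Versions, the annotation release and the handling of reads with several matches were not given in the sources used here. The labels' protocols name a TruSeq kit, in one place as an RNA kit and in the other as a total RNA kit.

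Symbols, coordinates, exon lengths and 50-base windows came from GENCODE mouse release M21 on GRCm38, which matched 55480 of 55573 IDs (99.83%). Promoter sequences came from RefSeq (GRCm38.p6), with an entry for 30 of the 31 genes. Genes were kept by filterByExpr (minimum count 10, minimum total 15), scaled by TMM (trimmed mean of M values) and fitted with edgeR 4.0.16 (glmQLFit, robust, with genotype as the only term) in R 4.3.3, with Benjamini-Hochberg adjustment over 13076 genes. The SE was derived from the F statistic. The script was tested on simulated data. DESeq2 1.42.0, other scalings and filters, other lengths and the omission of each library were alternatives. The biological coefficient of variation was 13.59%, and the spread within a group exceeded counting noise (chi-square per degree of freedom 14.3 in vdr-/- and 8.89 in WT). The libraries' replicate numbers are not stated to pair them.

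The 31 genes, the lists and the alternatives were chosen with earlier results of these data known. All 31 genes are accounted for. Values in every library are given for the gene with the highest level per kb at each step, for genes with an unadjusted p below 0.05 or a log2 fold change of at least 0.5 in size, and for all genes of a step shared by a pair. Of the other pathway genes those with an unadjusted p below 0.05 are named, except 1 that is not reported here, and Slc2a4, Mpc1 and the untested genes named were chosen after their values were seen. Protein sequences had been planned and were not used here.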

Additional observations from a re-analysis of the deposited data

How the results depend on the processing

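Of the results on which the comparisons rest, 93 values under alternatives moved by less than the spread between replicates (or, for a count, by at most 1.5 times) and 19 moved by more. For a share, leaving out 1 of 2 libraries cannot move the difference by more than that spread. Those values were thus bound to count among the 93 and say nothing about stability. That spread is wide for the shares of Pfkfb3 and Hk2, whose differences changed sign with a library left out. Without a filter on low counts 476 genes were called in place of 265, with 1 of the 31 genes (Eno1) and 2 of the other pathway genes (Hcar1 and Slc16a7). DESeq2 called 1 of the 31 (Eno1), as did edgeR with a replicate block, which called 346 genes. The replicate numbers paired the libraries by number only (the deviations of same-numbered libraries correlated at 0.039). The earlier quasi-dispersions of edgeR, an alternative added after seeing the data, called 323 genes and 2 of the other pathway genes (Hcar1 and Slc16a7). DESeq2 size factors, TMM without mitochondrial genes and Rn7sk, and a filter at 1 CPM in 2 libraries left 0 of the 31 called, though the last of these left Eno2 untested. Leaving out each library in turn gave 216 to 332 called genes, 0 to 3 of the 31, 1 to 2 of the other pathway genes, 13 to 24 positive log2 fold changes among the 31 and a median of -0.03 to 0.22. No alternative without a left-out library reversed the sign of any of the 31.

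Leaving out a library reversed 15 of the 31 log2 fold changes at least once. Their ranges were -0.26 to 0.26 for Hk2, -0.062 to 0.085 for Gpi1, -0.38 to 0.17 for Pfkm, -0.23 to 0.028 for Aldoa, -0.080 to 0.26 for Tpi1, -0.015 to 0.17 for Pgk1, -0.070 to 0.17 for Eno3, -0.51 to 0.23 for Eno2, -0.12 to 0.065 for Pkm, -0.16 to 0.087 for Ldha, -0.32 to 0.17 for Slc16a1, -0.028 to 0.24 for Bsg, -0.19 to 0.067 for Tigar, -0.15 to 0.24 for Pfkfb1 and -0.61 to 1.00 for Pfkfb3.

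Differences in isoform share, vdr-/- minus WT in percentage points, moved with the length. For Pfkm the value was -0.43 with all exons, -0.81 with the principal transcript, -0.81 with its windows found in no gene elsewhere (an alternative added after seeing the data) and -1.09 without a length. For Pgam2 it was -0.12 with all exons, -0.21 with those windows and -0.27 without a length. For Eno3 it was -0.29 with all exons, -0.67 with the principal transcript, -2.18 with those windows and -0.86 without a length. For Ldha it was -2.28 with all exons, -1.54 with the principal transcript, -1.74 with those windows and -1.16 without a length. For Hk2 it was 0.78 with all exons, 1.44 with the principal transcript and 1.07 without a length. With the principal transcript Hk2 held less of its step (91.7% in vdr-/- muscle and 90.3% in WT muscle) than Ldha did (94.9% in vdr-/- muscle and 96.4% in WT muscle). The cause was not tested beyond the lengths themselves. Leaving out each library gave -0.33 to 1.90 for Hk2, -0.69 to -0.17 for Pfkm, -0.18 to -0.05 for Pgam2, -0.41 to -0.17 for Eno3, -3.35 to -1.20 for Ldha, 1.59 to 6.34 for Slc16a3 and -10.58 to 18.26 for Pfkfb3. With 2 libraries a group and a median SE of 0.19 for a log2 fold change, small differences were not detectable.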
